A study of Vitis vinifera and Vitis x champinii x Vitis riparia and Vitis cinerea var. helleri x Vitis rupestris with 22 samples.

Results

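The custom grapevine array carried 26241 genes, and 90 of them, listed by the study as putative anion transporters, had each of their 2 probes printed 11 or 12 times. The 72 of these candidates described here are those left after setting aside 18 that the study singled out under names such as NRT1.4, NAXT1, SLAH1 and CCC. The study also lists VIT_09s0002g02430, which is kept here, as differing between its rootstocks. Outside the 90 genes no probe was printed more than 2 times. The 72 candidates had 144 probes, which filled 1598 of the 61657 non-control spots of each array. By the study's annotation, 27 were proton-dependent oligopeptide transporters (POT), 9 nitrate transporters of the NRT1 type, 6 peptide transporters, 6 chloride channel (CLC) proteins, 1 a slow anion channel (SLAC1) and 1 an ATP-binding cassette (ABC) transporter, while 22 carried no transporter annotation. The last group included a ribosomal protein, an endo-glucanase and a WRKY factor. The label of anion transporter candidates therefore holds for the list, but not for the annotation of each member.

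RNA came from whole roots of rooted leaves of Cabernet Sauvignon (Vitis vinifera), K51-40 (Vitis champinii crossed with Vitis riparia) and 140 Ruggeri (Vitis berlandieri crossed with Vitis rupestris). All plants stood in the same nutrient solution, and salt-treated plants received 50 mM Cl-, with sodium, calcium and magnesium as cations, for 4 days. There were 4 control and 4 salt arrays of Cabernet Sauvignon and of K51-40, and 3 and 3 of 140 Ruggeri, each hybridised with roots of 4 rooted leaves pooled. Plants of a variety are vegetative copies, so each variety stands for 1 genotype.

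Median spot intensities were 105.5 to 462 per array, and 72.5 to 82.0% of spots were well above background. The array labelled Cabernet Sauvignon control replicate 3 went against its label. Its scanner values correlated at 0.972 to 0.990 with K51-40 arrays and at 0.913 to 0.929 with the other Cabernet Sauvignon arrays, and at 0.931 with its own processed values against 0.994 or more for the other 21 arrays. Values below therefore rest on 21 arrays, with 3 for the Cabernet Sauvignon control, and the calls are also given with that array kept. The probes were designed on the V. vinifera genome, so a difference in RNA level and a difference in hybridisation cannot be told apart between varieties, and in pooled whole roots fewer cells of a type and less RNA per cell cannot be told apart either. No reference table here matched the array's gene identifiers, so root marker genes were not checked and no probe sequences were at hand.

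NRT1 and peptide transporters form one plant family of proton-coupled carriers. Some members move nitrate and a few move chloride, while others carry peptides, hormones or glucosinolates. CLC proteins move chloride or nitrate across the membranes of vacuoles and other compartments, SLAC-type channels release anions at the plasma membrane, and ABC transporters of the C group carry conjugated organic anions into the vacuole. In roots these families share the uptake of anions, their storage in vacuoles and their release to the xylem.

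Many candidates were dim in these roots. At least 1 probe was well above background on all 21 arrays for 45 of the 72 members (62.5%), against 73.1% of all genes, and both probes were for 33 members (45.8%), against 59.9%. For 10 members (13.9%, against 5.46% of all genes) neither probe reached that mark on any array. These were 5 POT genes, 2 nitrate transporters and 3 genes with no transporter annotation. SLAC1 (VIT_02s0025g04930), the guard cell anion channel of Arabidopsis, stayed near background, with 1 probe well above background on 1 array and the other on 7, and its log2 levels lay between 5.13 and 5.26 in the 6 groups. Of the CLC genes, those annotated CLC-d (VIT_05s0020g03090), in Arabidopsis a Golgi protein, and CLC (VIT_11s0118g00220) were well above background with both probes on all 21 arrays.

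Levels are given as log2 normalized intensity, averaged over the spots of a probe and then over the probes of a gene. Levels of different genes are not ranked, because brightness also depends on the probe. The range between the lowest and the highest group mean had a median of 0.417 over the 72 members. It was under 0.5 in 40 members, at least 1 in 13 and at least 2 in 3, namely VIT_18s0089g01010, VIT_18s0041g00480 and VIT_09s0002g02430. The heat map of the 45 detected members shows that these differences followed the variety far more than the salt treatment.

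**Figure D1:**
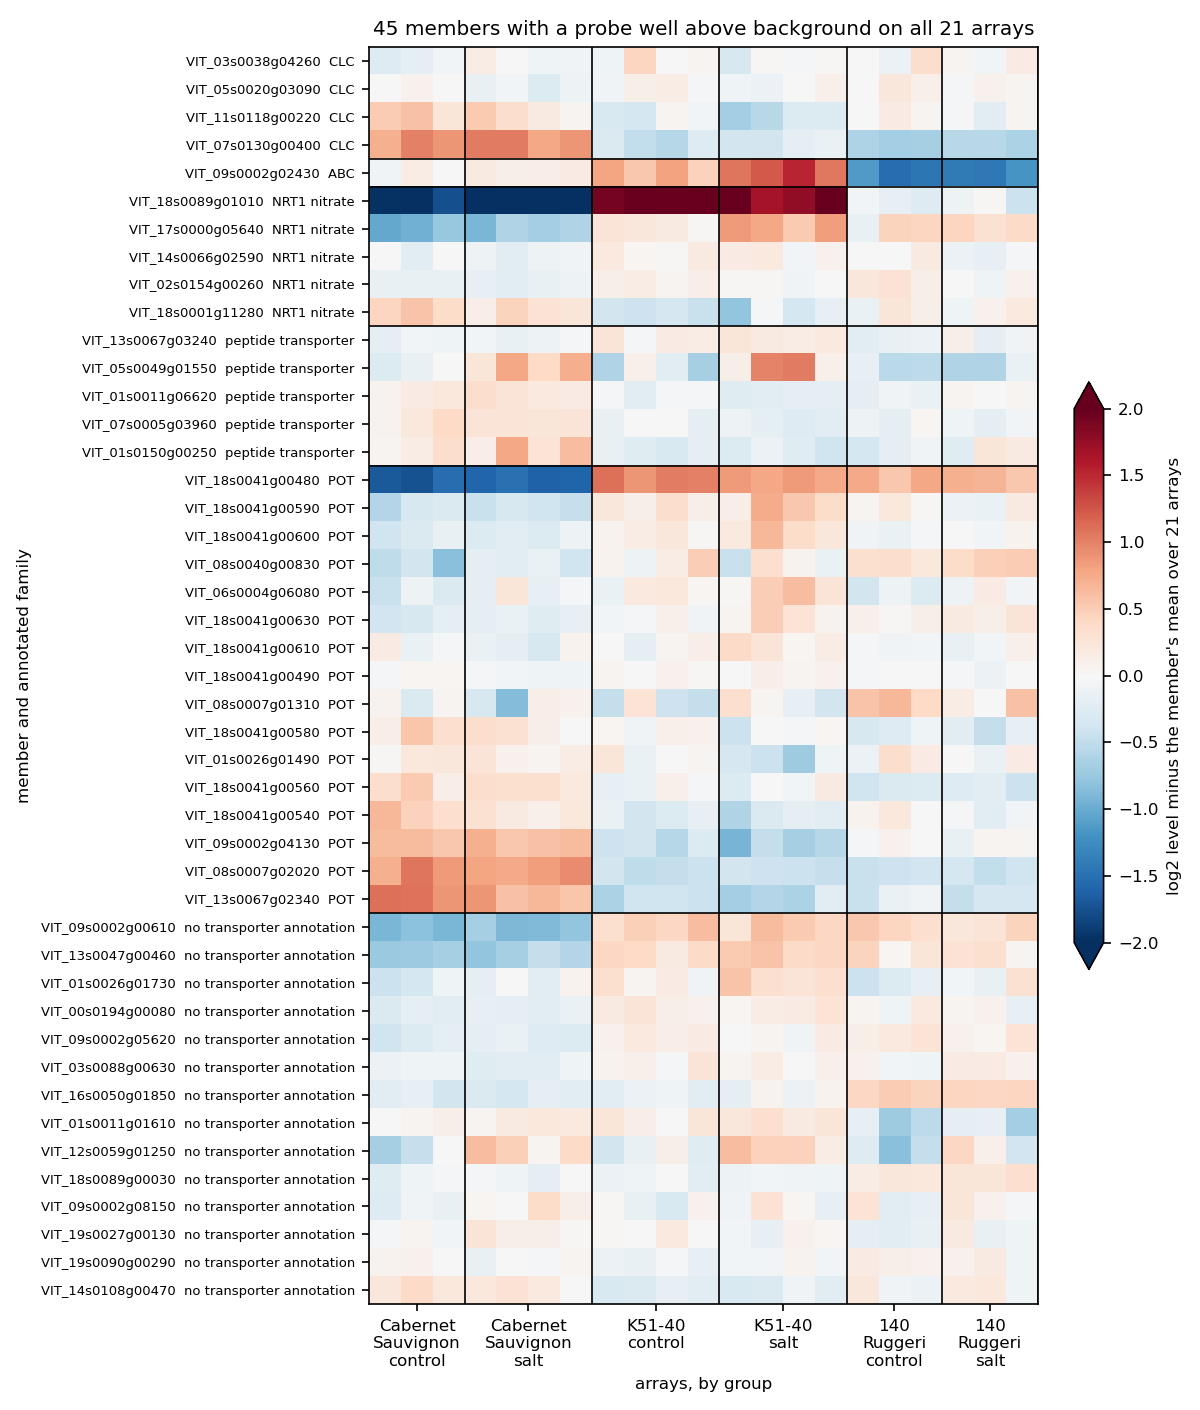
Log2 level of 45 members (rows, by annotated family) on each of the 21 arrays (columns, by group), minus the mean of that member over the arrays; colours saturate at 2. Blocks of colour change between varieties, as in VIT_18s0089g01010 (group means from 6.28 to 10.64), and little between control and salt within a variety.

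A probe was called when its adjusted p (limma, Benjamini-Hochberg over 52478 probes) was at most 0.05 and its log2 difference at least 0.5, which is 1.41-fold. A member was called when 1 of its probes was. Salt changed few of the candidates. In K51-40, 4 of 72 members were called (5.56%, against 3.46% of all genes), all higher in salt (1.53% of all genes), and 3 of them with both probes (1.6% of all genes). In Cabernet Sauvignon limma called 0 members (1.22% of all genes) and in 140 Ruggeri 0 (0.408% of all genes). At an unadjusted p under 0.05 there were 18 of 144 member probes in Cabernet Sauvignon and 9 in 140 Ruggeri. Over all 52478 probes there were 6222 and 6242. The median log2 difference of the member probes was 0.00704 in Cabernet Sauvignon, 0.00361 in K51-40 and -0.0042 in 140 Ruggeri, against -0.000167, 0.0063 and -0.000789 over all probes. Salt and control arrays did not overlap in 8 of the 72 members in Cabernet Sauvignon, 7 in K51-40 and 12 in 140 Ruggeri, against 14.5, 11.2 and 14% of all genes.

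The largest salt difference in K51-40 was that of VIT_05s0049g01550, annotated as peptide transporter protein 3, whose Arabidopsis namesake is a stress-inducible peptide carrier. Its level was 9.17, 9.88, 9.55 and 9.12 on the control arrays of K51-40 and 9.90, 10.77, 10.82 and 9.88 on the salt arrays. The lowest salt array and the highest control array were thus nearly equal, while every salt array lay above the control array of the same number. The difference was 0.88 ± 0.21 (SE) for the first probe (adjusted p = 0.0192) and 0.94 ± 0.22 for the second (adjusted p = 0.0163), or 1.85- and 1.91-fold. In Cabernet Sauvignon the level was 9.51, 9.63 and 9.78 in control and 10.02, 10.55, 10.17 and 10.50 in salt. The groups did not overlap there, as in 14.5% of all genes, and differed by 0.65 and 0.69, which did not pass (adjusted p = 0.215 and 0.197). With same-numbered arrays as a block within each variety, a setting chosen after seeing the data, both probes passed there (0.68 and 0.75, adjusted p = 0.0338 and 0.0304), but the Cabernet Sauvignon numbers did not meet the rule for pairs. In 140 Ruggeri the control arrays gave 9.61, 9.24 and 9.26 and the salt arrays 9.18, 9.17 and 9.65, a difference of -0.05 and -0.02. The salt response of K51-40 exceeded that of 140 Ruggeri by 0.94 ± 0.32 and 0.96 ± 0.33, which did not pass (adjusted p = 0.206 and 0.211). With that block, both probes passed for this difference (0.94 and 0.96, adjusted p = 0.0394 and 0.0465). The gene was lower in 140 Ruggeri than in K51-40 in salt, at a log2 difference of -1.03 and -0.98 (adjusted p = 0.000868 and 0.00174), while in control the difference was -0.10 and -0.03 and did not pass (adjusted p = 0.773 and 0.939). The call in K51-40 was lost when control replicate 1 or 4 or salt replicate 2 or 3 was left out, with an adjusted p of 0.0551 to 0.0721. Over the 20 alternatives that kept the thresholds, the adjusted p ran from 0.00163 to 0.403.

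The second member was VIT_17s0000g05640, annotated nitrate transporter 1:2 after the low-affinity nitrate carrier of Arabidopsis roots. On the K51-40 arrays it stood at 7.07, 7.05, 7.00 and 6.84 in control and at 7.67, 7.59, 7.34 and 7.66 in salt, with no overlap (11.2% of all genes do not overlap in this comparison). The difference was 0.54 ± 0.09 and 0.61 ± 0.15 (adjusted p = 0.00202 and 0.0224). In 140 Ruggeri it was 0.16 and 0.11 and in Cabernet Sauvignon 0.12 and 0.31, none of which passed. The K51-40 call of the first probe was lost in 2 of the 20 alternatives that kept the thresholds, with an adjusted p from 0.00039 to 0.253 over these 20. On keeping the array labelled Cabernet Sauvignon control replicate 3, only 1 probe was called in K51-40.

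The third was the ABC transporter C member 12, VIT_09s0002g02430. Its K51-40 levels were 10.49, 10.24, 10.50 and 10.16 in control and 10.77, 10.93, 11.23 and 10.75 in salt, again without overlap. It rose by 0.57 ± 0.11 and 0.58 ± 0.12 (adjusted p = 0.00497 and 0.0064), while its differences in the other varieties were 0.00 to 0.14. Without K51-40 salt replicate 3 its difference was 0.45, below the threshold of 0.5. With the authors' processed values neither of its probes was called. The call of its first probe was lost in 4 of the 20 alternatives that kept the thresholds, and over these 20 the adjusted p ran from 0.0012 to 0.283. The fourth, the CLC-c gene VIT_07s0130g00400, in Arabidopsis a vacuolar anion carrier, was called by 1 probe only. That probe differed by 0.52 (adjusted p = 0.0214) and the other by -0.25 (adjusted p = 0.164), and the other probe was well above background on 1 of the 4 salt arrays. The CLC-c call was lost in 8 of the same 20 alternatives, with an adjusted p from 0.0018 to 0.622 over them.

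These K51-40 calls depended on arrays and scaling. K51-40 control and salt arrays 1 and 2 were read on the first scan date and 3 and 4 on the second. Averaged over both probes and without batch correction, peptide transporter 3 differed by 0.80 on the first date and 1.01 on the second, nitrate transporter 1:2 by 0.57 and 0.58, the ABC transporter by 0.48 and 0.66, and CLC-c by 0.01 and 0.26. On the arrays of the first date alone 0 members were called in K51-40 by limma, and without batch correction 1. With 75th percentile scaling 4 members were higher and 3 lower, and no share of all genes was counted for it. Keeping the array labelled Cabernet Sauvignon control replicate 3, limma called 3 members, CLC-c not among them.

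**Figure D2:**
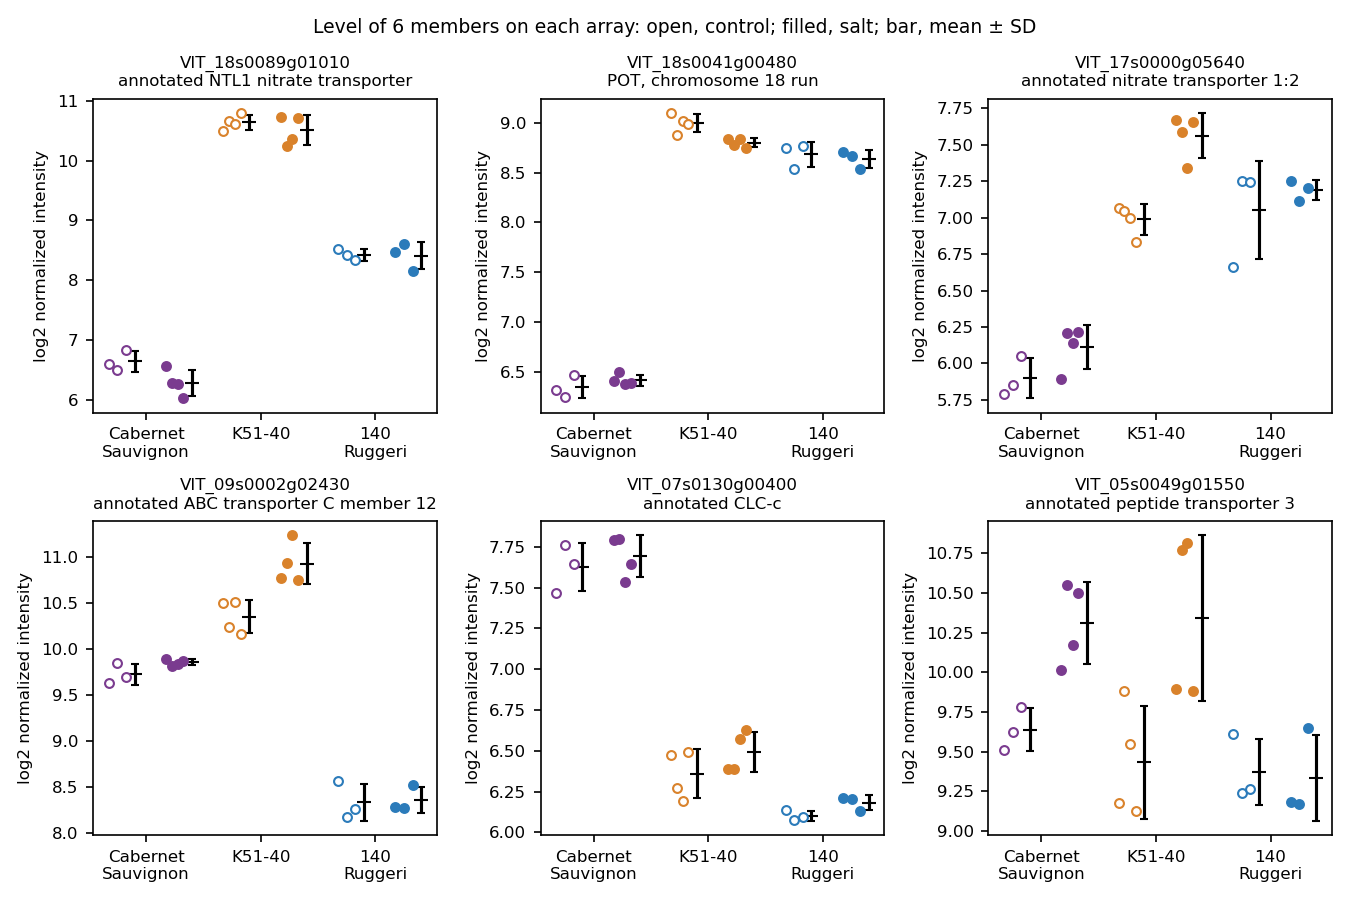
Log2 normalized intensity (mean of both probes) of 6 members on each array, by variety; open points are control and filled points salt arrays, and bars give the mean ± SD of 3 or 4 arrays. Peptide transporter 3 was at 9.88 to 10.82 in K51-40 salt roots against 9.17 to 9.65 in 140 Ruggeri salt roots, and the NTL1 gene separated all 3 varieties. Separation of a pair of varieties was common over all genes.

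VIT_12s0059g01250, annotated as an endo-1,4-beta-glucanase, a cell wall enzyme, is named although it was not called, and was picked after its values were seen. Its mean level was 8.91 in control and 9.67 in salt in Cabernet Sauvignon, 9.12 and 9.71 in K51-40 and 8.76 and 9.33 in 140 Ruggeri. The adjusted p ranged from 0.0573 to 0.0876 in Cabernet Sauvignon and K51-40 and was 0.256 and 0.283 in 140 Ruggeri. Salt and control arrays did not overlap in Cabernet Sauvignon or K51-40 (as in 14.5 and 11.2% of all genes), but did in 140 Ruggeri. With same-numbered arrays as a block within each variety, it was called in K51-40 with 1 probe (0.59, adjusted p = 0.048) and in Cabernet Sauvignon, where the numbers did not meet the rule for pairs, with both (0.89 and 0.84, adjusted p = 0.0352 and 0.0419).

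The difference between the salt responses of a pair of varieties was called by limma for 0 members in each case, against 0.713% of all genes for K51-40 minus 140 Ruggeri, 1.33% for K51-40 minus Cabernet Sauvignon and 0.0267% for 140 Ruggeri minus Cabernet Sauvignon. At an unadjusted p under 0.05 there were 15, 17 and 4 of the 144 member probes, against 6736, 6900 and 2713 of all 52478 probes.

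140 Ruggeri is known as a rootstock that keeps chloride out of the shoot and K51-40 as one that does not, and the question for the candidates was which of them differ between these roots. Under control conditions 14 of 72 members were called (19.4%, against 36.2% of all genes), 6 higher and 8 lower in 140 Ruggeri (18.6 and 18.5% of all genes), and 4 with both probes (14.8% of all genes). They were 7 of the 27 POT genes, 2 of the 6 CLC genes, 1 of the 9 nitrate transporters, the ABC transporter and 3 of the 22 genes without transporter annotation, but none of the 6 peptide transporters. In salt 15 were called (20.8%, against 37.2%), 6 higher and 9 lower (19.1% of all genes in each direction), and 4 with both probes (14.9% of all genes). The control and salt comparisons share no arrays, and 9 members were called in both in the same direction, 64.3% of those called in control and 60% of those called in salt, against 79.3 and 77.1% of all genes called. Among the 18 candidates set aside, several of them named by the study because they differed between these rootstocks, 14 were called in control and 12 in salt. Over all 90 candidates the shares were 31.1% and 30%. The member probes were also averaged over 11 or 12 spots, so the background is not of equal precision. With 75th percentile scaling 12 members were higher and 39 lower in salt, and no share of all genes was counted for it.

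Both probes of only 2 members were called between the rootstocks in control and in salt alike. The first was VIT_18s0089g01010, annotated NTL1 after a low-affinity nitrate carrier of Arabidopsis roots. Its levels in control roots were 10.49, 10.66, 10.62 and 10.80 in K51-40, 8.53, 8.42 and 8.33 in 140 Ruggeri and 6.60, 6.49 and 6.83 in Cabernet Sauvignon. In salt they were 10.73, 10.25, 10.36 and 10.72, then 8.47, 8.60 and 8.15, then 6.56, 6.28, 6.27 and 6.02. The 3 varieties were thus fully apart under both treatments, and many other genes also separated pairs of varieties, as counted below. In control roots 140 Ruggeri was below K51-40, with log2 differences of -2.81 ± 0.15 and -1.62 ± 0.17 for the first and second probe (7.03- and 3.08-fold, adjusted p = 7.44e-12 and 8.73e-08), and in salt of -2.76 and -1.45 (adjusted p = 9.85e-12 and 4.07e-07). K51-40 exceeded Cabernet Sauvignon in control by 4.45 ± 0.15 and 3.56 ± 0.17, which is 21.8- and 11.8-fold (adjusted p = 2.04e-15 and 2.32e-13), and in salt by 4.69 and 3.78. 140 Ruggeri exceeded Cabernet Sauvignon by 1.63 and 1.94 in control (adjusted p = 4.46e-08 and 1.06e-08) and by 1.93 and 2.33 in salt. The probes thus gave the same order of varieties with different sizes. The array labelled Cabernet Sauvignon control replicate 3 read 9.92 for this gene. With it kept, the control difference between 140 Ruggeri and Cabernet Sauvignon was 0.60 and 1.18 and was not called (adjusted p = 0.454 and 0.0571), while K51-40 against Cabernet Sauvignon stayed called at 3.58 and 2.97. The salt differences within each variety were -0.36 to 0.04 and none passed. Between 140 Ruggeri and K51-40 in control, arrays did not overlap for 12256 of 26241 genes and 23 of the 72 members. The counts were 15415 genes and 40 members between 140 Ruggeri and Cabernet Sauvignon, and 14587 and 43 between K51-40 and Cabernet Sauvignon. In salt the gene counts were 12192, 14036 and 13815, and the member counts 27, 37 and 42.

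The second was the ABC transporter VIT_09s0002g02430, with 140 Ruggeri below and K51-40 above Cabernet Sauvignon. Its control levels were 8.56, 8.18 and 8.26 in 140 Ruggeri, 9.63, 9.84 and 9.69 in Cabernet Sauvignon and, as given above, 10.16 to 10.50 in K51-40. In salt 140 Ruggeri gave 8.28, 8.27 and 8.52 and Cabernet Sauvignon 9.89, 9.81, 9.84 and 9.87. 140 Ruggeri was the lowest under both treatments, without overlap, which many genes share for a pair of varieties, as counted above. Its difference from K51-40 was -1.79 ± 0.12 and -2.24 ± 0.13 in control (3.45- and 4.72-fold lower, adjusted p = 1.69e-10 and 1.1e-11) and -2.36 and -2.77 in salt (5.12- and 6.82-fold lower). Its difference from Cabernet Sauvignon was -1.47 and -1.30 in control (adjusted p = 5.3e-09 and 6.2e-08) and -1.59 for the first probe in salt (adjusted p = 5.24e-10), where the second was called as well, and these calls held on keeping the array labelled Cabernet Sauvignon control replicate 3. K51-40 exceeded Cabernet Sauvignon by a median of 0.628 over both probes in control, where 1 was called, and of 1.07 in salt, where both were.

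Other calls between the rootstocks were smaller. VIT_16s0050g01850, an AAA-type ATPase, was higher in 140 Ruggeri than in K51-40 by 0.61 and 0.62 in control (adjusted p = 2.12e-06 and 2.37e-06), and by 0.47 and 0.44 in salt, below the fold threshold. The POT gene VIT_08s0007g01310 was higher by 0.93 and 0.70 in control (adjusted p = 0.0305 and 0.00292), but by 0.39 and 0.17 in salt, which did not pass. One K51-40 control array, replicate 2, read 10.31 for it against 9.55 to 9.61 on the other 3, and 140 Ruggeri read 10.59, 10.69 and 10.43. The POT gene VIT_09s0002g04130 was higher in 140 Ruggeri by 0.50 and 0.34 in control, called by 1 probe, and by 0.71 and 0.58 in salt, called by both (adjusted p = 1.26e-05 and 9.03e-05).

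For the members called between the rootstocks by 1 probe the other probe often pointed elsewhere. Of 10 such members in control, the other probe had the opposite sign in 4, in each of which it was well above background on every array compared. Of 11 in salt it was opposite in 5, and above background throughout in 3. For CLC-c, 140 Ruggeri minus K51-40 was -0.53 in control and -0.89 in salt with the first probe (adjusted p = 0.00357 and 2.01e-05), but 0.01 in control with the second. In salt the second gave 0.26, being well above background on only 1 of the 4 K51-40 arrays. The CLC gene VIT_11s0118g00220 was higher in 140 Ruggeri by 0.55 and 0.76 with its second probe (adjusted p = 0.0159 and 0.00147), whereas its first probe gave -0.07 and 0.00. The control calls of both CLC genes were lost on keeping the array labelled Cabernet Sauvignon control replicate 3. No CLC member was called with both probes between these rootstocks. VIT_13s0019g02460, a POT gene, differed by -0.65 with 1 probe in control (adjusted p = 8.06e-06). That probe was not well above background on any 140 Ruggeri control array, so K51-40 can only be said to be at least 1.55-fold higher.

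**Figure D3:**
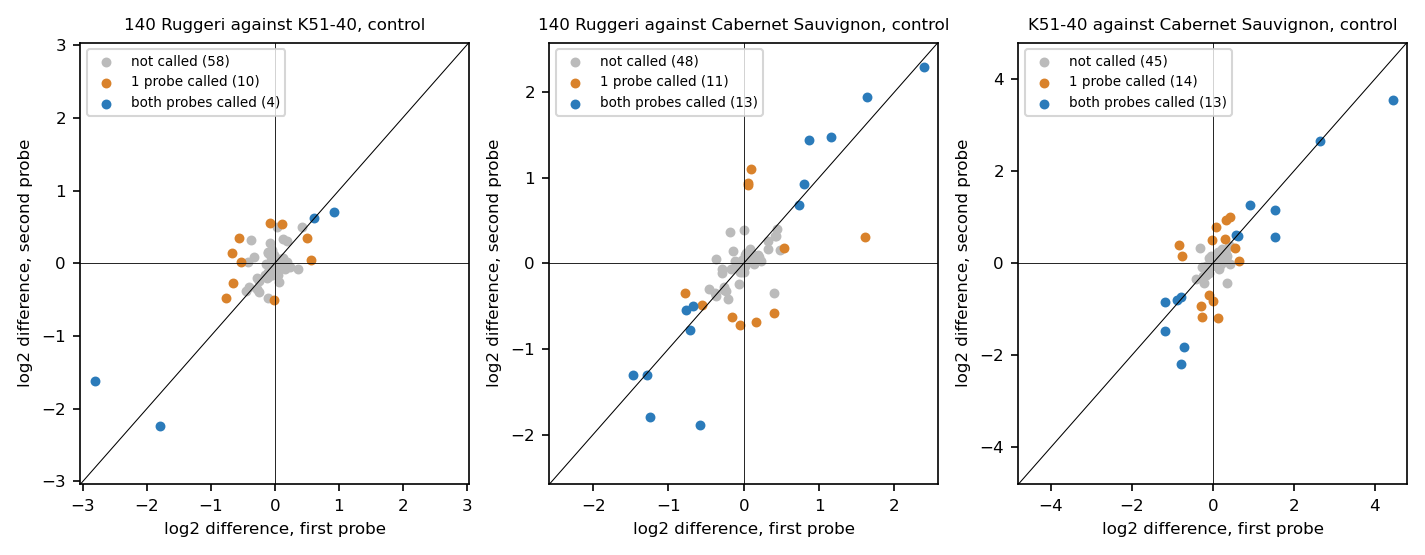
Log2 difference of the first probe (x axis) against the second probe (y axis) of each of the 72 members in 3 comparisons of control roots, with the diagonal of equal values; colour gives whether no probe, 1 probe or both probes were called. Between the rootstocks 4 members were called with both probes and 10 with 1, while against Cabernet Sauvignon 13 members were called with both probes by each rootstock.

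More candidates differed between either rootstock and Cabernet Sauvignon. For 140 Ruggeri 24 members were called in control (33.3%, against 45.6% of all genes), 11 higher and 13 lower (24 and 23% of all genes), and 24 in salt (against 42.9%), 10 higher and 14 lower (22.2 and 22%), of which 22 were called in both in the same direction (91.7% of each, against 84.4 and 89.7% over all genes called). For K51-40 27 were called in control (37.5%, against 44.3%), 14 higher and 13 lower (22.8 and 22.9%), and 28 in salt (38.9%, against 44.6%), 15 higher and 13 lower (23.1 and 22.9%), with 23 called in both in the same direction (85.2% and 82.1%, against 82.2 and 81.6% over all genes called) and 1 in opposite directions by different probes. Over all 90 candidates 38.9% were called for 140 Ruggeri in control and in salt, and 44.4% for K51-40 in each. Of the 18 set aside, 11 were called for 140 Ruggeri and 13 for K51-40 in control, and 11 and 12 in salt. With both probes called the member counts were 13 and 13 for 140 Ruggeri (20.2 and 19.1% of all genes) and 13 and 14 for K51-40 (19.7 and 19.9%). In control, POT genes made up 11 of the 24 (4 higher and 7 lower) and 13 of the 27 (5 higher and 8 lower), while the nitrate transporters gave 3 and 3. Keeping the array labelled Cabernet Sauvignon control replicate 3, 18 members were called in control for 140 Ruggeri and 20 for K51-40, and the salt counts were 23 and 28. In salt, 75th percentile scaling gave 40 members higher and 19 lower in K51-40, and normexp background correction 10 higher and 9 lower in 140 Ruggeri. No share of all genes was counted for either setting. The control comparisons of both rootstocks share the Cabernet Sauvignon arrays, so their values are given side by side only.

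The POT gene VIT_18s0041g00480 was low in Cabernet Sauvignon and high in both rootstocks. Control arrays read 6.32, 6.25 and 6.47 in Cabernet Sauvignon, 9.10, 8.88, 9.02 and 8.99 in K51-40 and 8.74, 8.54 and 8.77 in 140 Ruggeri. In salt the means were 6.42 ± 0.06 (SD, n = 4), 8.80 ± 0.05 (n = 4) and 8.64 ± 0.09 (n = 3). K51-40 exceeded Cabernet Sauvignon by 2.66 and 2.65 in control (6.31- and 6.28-fold, adjusted p = 2.96e-16 and 5.06e-15) and 140 Ruggeri by 2.39 and 2.29 (5.23- and 4.9-fold, adjusted p = 6.31e-15 and 1.94e-13). The first probe was well above background on 1 of 3 Cabernet Sauvignon control arrays and 2 of 4 salt arrays, so its size is less certain. Over the alternatives its control difference ran from 2.09 to 4.64 for K51-40 and from 1.74 to 4.76 for 140 Ruggeri, all called. 140 Ruggeri minus K51-40 was -0.27 and -0.36, under the fold threshold. Kept, the array labelled Cabernet Sauvignon control replicate 3 read 8.79, and the control differences from Cabernet Sauvignon were 2.12 and 2.10 for K51-40 and 1.74 and 1.63 for 140 Ruggeri, all still called.

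Nitrate transporter 1:2, VIT_17s0000g05640, was also higher in both rootstocks. Its Cabernet Sauvignon levels were 5.79, 5.85 and 6.05 in control and 5.89, 6.21, 6.14 and 6.22 in salt, below all arrays of either rootstock. Such separation was common for pairs of varieties, as counted above. 140 Ruggeri read 6.66, 7.25 and 7.25 in control and 7.25, 7.12 and 7.20 in salt. The difference from Cabernet Sauvignon in control was 0.87 and 1.44 for 140 Ruggeri (adjusted p = 7.87e-07 and 5.28e-07) and 0.92 and 1.26 for K51-40 (adjusted p = 1.37e-07 and 1.18e-06). The first probe was well above background on only 1 of 3 Cabernet Sauvignon control arrays. Its difference for K51-40 ran from 0.61 to 2.25 over the alternatives that kept the thresholds, all called. A further NRT1 gene annotated nitrate transporter 1:2, VIT_18s0001g11280, was lower in K51-40 than in Cabernet Sauvignon, at -0.89 and -0.80 in control and -0.63 and -0.58 in salt, while 140 Ruggeri differed by -0.46 and -0.30 in control, which was not called.

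Other members were higher in Cabernet Sauvignon. CLC-c (VIT_07s0130g00400) read 7.47, 7.76 and 7.64 in Cabernet Sauvignon control roots, 6.47, 6.27, 6.19 and 6.49 in K51-40 and 6.14, 6.08 and 6.09 in 140 Ruggeri, and in salt its means were 7.69, 6.49 and 6.18. 140 Ruggeri minus Cabernet Sauvignon was -1.25 and -1.80 in control (adjusted p = 3.99e-07 and 2.46e-11), and K51-40 minus Cabernet Sauvignon -0.72 and -1.81 (adjusted p = 0.000146 and 5.83e-12). The POT gene VIT_13s0067g02340 read 10.49, 10.47 and 10.26 in Cabernet Sauvignon control roots against 8.75 to 8.99 in K51-40 and 8.94 to 9.32 in 140 Ruggeri. Its probes disagreed in size, at -0.78 and -2.19 for K51-40 and -0.58 and -1.89 for 140 Ruggeri in control. Keeping the array labelled Cabernet Sauvignon control replicate 3, 140 Ruggeri gave -0.34 and -1.25, and only the second probe was called. Another POT gene, VIT_08s0007g02020, read 6.61, 6.96 and 6.75 in Cabernet Sauvignon and 5.39 to 5.53 on every rootstock array. Its second probe was not well above background on any rootstock array, so Cabernet Sauvignon was at least 2.71-fold higher than K51-40 and at least 2.47-fold higher than 140 Ruggeri in control by that probe. VIT_09s0002g04130 was highest in Cabernet Sauvignon as well, at 9.95 ± 0.06 (SD, n = 3) in control against 9.36 ± 0.06 (n = 3) in 140 Ruggeri and 8.93 ± 0.12 (n = 4) in K51-40. These 3 groups did not overlap, as was common for pairs of varieties (counts given for VIT_18s0089g01010). Each pair was called in control and in salt by 1 probe or both. The exception was that keeping the array labelled Cabernet Sauvignon control replicate 3 ended the control call against 140 Ruggeri (-0.47 and -0.38).

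Among the 22 members with no transporter annotation, 6 were called between 140 Ruggeri and Cabernet Sauvignon in control (27.3%, against 45.6% of all genes) and 5 between K51-40 and Cabernet Sauvignon (22.7%, against 44.3%). VIT_09s0002g00610, a protein of the small ribosomal subunit, was higher in both rootstocks, by 1.16 and 1.48 in 140 Ruggeri and 1.53 and 1.15 in K51-40. VIT_13s0047g00460, annotated essential for mitotic growth 1, was higher in 140 Ruggeri by 1.61 and 0.31 and in K51-40 by 1.55 and 0.56, the second probe being under the fold threshold in 140 Ruggeri. VIT_01s0011g01610, a protein kinase C inhibitor, was lower in 140 Ruggeri than in K51-40 with its first probe (-0.76 in control and -0.69 in salt) and just under the fold threshold with its second (-0.47 and -0.48).

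Peptide transporters and smaller POT calls rested mostly on 1 probe. VIT_01s0150g00250, annotated PTR2-B, was lower in K51-40 than in Cabernet Sauvignon by its second probe, at -0.81 in control (adjusted p = 0.0102) and -1.38 in salt (adjusted p = 3.91e-05), and its first probe was not well above background on any rootstock array. For VIT_07s0005g03970, a further gene annotated peptide transporter protein 3, the second probe put Cabernet Sauvignon at least 1.34-fold above 140 Ruggeri in control, where the first gave 0.40 in the other direction, with 2 of 3 Cabernet Sauvignon arrays well above background for each probe. The POT gene VIT_01s0011g03400 was low in both rootstocks with both probes, at -0.71 and -0.78 in 140 Ruggeri and -0.79 and -0.74 in K51-40 in control, with 3 of 4 K51-40 arrays well above background for each probe and 2 of 3 of 140 Ruggeri for the second. VIT_08s0040g00830, also POT, was higher in 140 Ruggeri than in Cabernet Sauvignon by 0.80 and 0.92 in control and 0.66 and 0.72 in salt. The probes of VIT_08s0007g01310 had opposite signs between K51-40 and Cabernet Sauvignon under both treatments. The first gave -0.83 in control, which was called, and -0.49 in salt, and the second 0.40 in control and 0.90 in salt, of which only the salt value was called.

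Of all 72 members, 39 were called in at least 1 of the 6 variety comparisons (54.2%, against 67.8% of all genes), 33 in none and 6 in all of them (8.33%, against 11.1%). These shares leave out the 18 candidates set aside and were not counted over all 90. The 6 were VIT_18s0089g01010, VIT_09s0002g02430, VIT_07s0130g00400, VIT_09s0002g04130, VIT_18s0041g00560 and VIT_18s0041g00590.

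The last 2 belong to a run of POT genes on chromosome 18 with the identifier VIT_18s0041g, of which 11 array genes are members. A pair of them, GSVIVT01026061001 and GSVIVT01026062001, are older gene models that share the identifier VIT_18s0041g00610. Neighbouring genes of this kind can be alike in sequence, and hybridisation of 1 gene's RNA to the probes of another was not tested. Under control conditions 6 of the 11 were called between K51-40 and Cabernet Sauvignon, 5 between 140 Ruggeri and Cabernet Sauvignon and 4 between the rootstocks, and in salt 8, 5 and 3. Over all genes the shares were 44.3, 45.6 and 36.2% in control and 44.6, 42.9 and 37.2% in salt, against 54.5, 45.5 and 36.4% and 72.7, 45.5 and 27.3% of these 11. Salt itself called 0 of them in any variety.

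The run did not move as 1 block. VIT_18s0041g00480 stood at 2.65 above Cabernet Sauvignon in K51-40, whereas the second probe of its neighbour VIT_18s0041g00490 stood at 0.11, well above background on all arrays. The other probe of that gene and both probes of VIT_18s0041g00510 were not well above background on any array, so nothing is read from them. Further along, VIT_18s0041g00540 and VIT_18s0041g00560 were lower in K51-40 than in Cabernet Sauvignon with 1 probe each, at -1.17 and -0.69, where the other probes gave -0.28 and -0.10. In VIT_18s0041g00580 the first probe gave -0.76, which was called, and the second 0.16. VIT_18s0041g00590 was higher by 0.62 and 0.59 and the first of the VIT_18s0041g00610 pair by 0.57 and 0.61 (well above background on 2 of 3 Cabernet Sauvignon arrays), but neither was called in control on keeping the array labelled Cabernet Sauvignon control replicate 3. Under salt, where no array was in doubt, they were higher by 0.86 and 0.84 and by 0.75 and 0.73, and VIT_18s0041g00600 by 0.57 and 0.58. Between the rootstocks in control, the probes of 1 gene parted most in VIT_18s0041g00590, which gave -0.56 and 0.34, and in VIT_18s0041g00560, which gave -0.68 and 0.14.

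**Figure D4:**
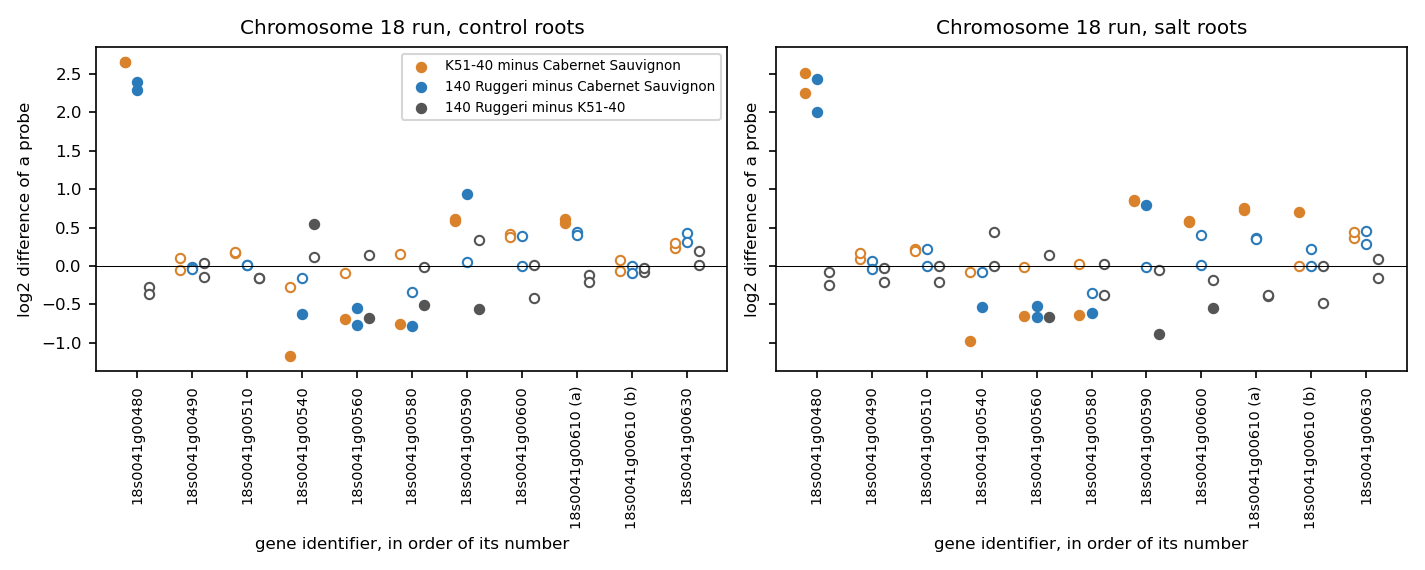
Log2 difference of each probe between pairs of varieties for the 11 array genes of the chromosome 18 run, in order of identifier, in control (left) and salt roots (right); filled points were called. VIT_18s0041g00480 stood 2.29 to 2.66 above Cabernet Sauvignon in control, while called genes further along lay on both sides of 0; (a) and (b) are GSVIVT01026061001 and GSVIVT01026062001.

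Printing a probe 11 or 12 times gave a measure of spread within an array. The SD among the spots of a member probe within an array had a median of 0.149 log2 over the 144 probes (0.0866 to 0.339), which gives a standard error of 0.0444 for the mean of the spots. The SD among arrays of a group had a median of 0.111 for the averaged probe and of 0.167 for 1 spot of it. For 98 of the 144 probes single spots of 1 array were more spread than the array averages of a group, while the standard error of the averaged spots exceeded the SD among arrays for 12. On log2 values before normalization and batch correction the SD among arrays had a median of 0.437, and the spots were the more spread for 0 of the 144 probes. For the 78 probes well above background on all 21 arrays the medians were 0.145 within and 0.152 between arrays, and for the 32 on none they were 0.152 and 0.0577. Taking 1 spot per probe gave 16 called members between the rootstocks in control and 19 in salt, against 14 and 15 with all spots. No share of all genes was counted with 1 spot per probe.

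**Figure D5:**
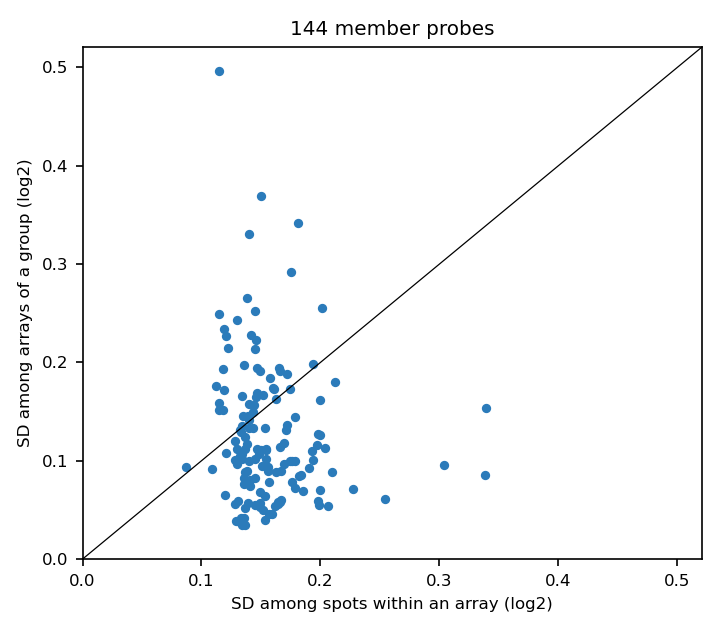
SD among single spots of a probe within an array (x axis, log2) against the SD among arrays of a group for the average of its spots (y axis, log2), after normalization and batch correction, for the 144 member probes, with the line of equal values. Most points, 98 of 144, lie below the line.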

How the data were processed

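The authors deposited, for each array, scanner intensities per spot from Agilent Feature Extraction 10.7.3, and a table of log2 values that they had quantile normalized and corrected with ComBat. The median pixel intensity of non-control spots was log2 transformed, quantile normalized and adjusted for 2 scan dates with a parametric empirical Bayes ComBat (tolerance 1e-04), protecting the 6 groups. After averaging the spots of each probe, a linear model with a mean for each of the 6 groups was fitted to all 52478 probes (limma 3.58.1, R 4.3.3). The second date held 7 arrays on 1 of 4 slides, none of 140 Ruggeri, so that slide and date cannot be told apart. The calculation was tested on simulated data.

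Members and lists were chosen with earlier results of these data known. The rule picked, per comparison, at most 8 members called with both probes and 4 with 1 probe. Not every call it picked is given with values above. VIT_18s0089g00030, VIT_09s0002g05620 and VIT_14s0108g00470, picked by 1 probe, are not described, but are counted among the named members and calls below. The member of each family with the largest range and the members of the chromosome 18 run were named as well. VIT_12s0059g01250, VIT_18s0001g11280, VIT_07s0005g03970 and VIT_01s0011g03400 were named outside this rule. They are not among the named calls followed over the alternatives. A planned part of the rule, the members with the highest and lowest levels, was not used, since probes differ in brightness. Gene names come from the study's list, and 2 array genes matching GTR1 were set aside.

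Same-numbered control and salt arrays had residuals correlated at 0.216 to 0.276 in K51-40, 0.239 to 0.342 in 140 Ruggeri and 0.0723 to 0.254 in Cabernet Sauvignon, so the numbers met the rule for pairs (every correlation over 0.1) in the rootstocks only. The fit with the number as a block within each variety covered all 3 varieties. No source says that replicates were separate cultures beyond the pooled plants, so p-values measure the spread between these arrays. Alternatives covered the batch step, scaling, background correction, detection, the authors' log2 values, thresholds, spots per probe, the replicate block and each array left out in turn.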

Additional observations from a re-analysis of the deposited data

Results flagged for a closer look

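Among 25 named members, 100 groups of 4 arrays were checked for 1 array far from the rest, as the gap to the nearest other array divided by the range of the group. The ratio exceeded Dixon's critical value in 9 of them, and chance gives about 1 in 20. The array labelled Cabernet Sauvignon control replicate 3, kept as labelled, accounted for 6. The ratio was 0.943 for VIT_18s0089g01010, 0.969 for VIT_18s0041g00480, 0.888 for VIT_09s0002g00610, 0.881 for VIT_13s0067g02340, 0.963 for VIT_13s0047g00460 and 0.868 for VIT_09s0002g04130. In each the array lay on the side of the K51-40 controls, for example at 9.92 for VIT_18s0089g01010 against 6.52 to 6.71 on the other 3 arrays.

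The other 3 were K51-40 control arrays, and 3 flags in the remaining groups are no more than chance gives at the rate above. VIT_08s0007g01310 was at 10.31 on replicate 2 against 9.55 to 9.61 (ratio 0.921). VIT_13s0067g02340 was at 8.75 on replicate 1 against 8.96 to 8.99 (ratio 0.887). VIT_13s0047g00460 was at 9.66 on replicate 3 against 9.85 to 9.89 (ratio 0.843).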

How the results depend on the processing

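Each of 68 calls of a named member in a comparison was followed by its probe with the lowest p, at the thresholds of the main fit. Of these calls, 56 were kept in each alternative run for their comparison, 12 were lost in at least 1 and 0 changed sign. The tally leaves out the stricter settings (both probes required, or a log2 difference of at least 1), for which only members were counted. The counts of called members moved most with 75th percentile scaling, which also shifted median differences. Between 140 Ruggeri and K51-40 in salt the median was -0.156 over all probes and -0.419 over the member probes. Between K51-40 and Cabernet Sauvignon in salt it was 0.205 and 0.393. This scaling called 50 members in the first of these comparisons, 56 in the second and 1 in 140 Ruggeri under salt. The share of all genes called was counted for the main fit only, and the cause was not tested. With both probes required the counts were 4, 13 and 13 in control (140 Ruggeri against K51-40, 140 Ruggeri against Cabernet Sauvignon, K51-40 against Cabernet Sauvignon) and 4, 13 and 14 in salt, and with a log2 difference of at least 1 they were 2, 10 and 12 and 3, 10 and 14, both by construction fewer. Between the rootstocks in control, normexp gave 9 members and the authors' processed values 8. For salt in K51-40, no batch correction gave 1, the first scan date alone (fewer arrays) 0 and a log2 difference of at least 1 also 0. For salt in Cabernet Sauvignon, slide in place of scan date gave 2, well detected probes 1 and the replicate block within each variety 2. The difference between the salt responses of K51-40 and 140 Ruggeri gave 1 with slide and 1 with that block, and K51-40 minus Cabernet Sauvignon 1 with slide.

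With each array left out in turn, the salt counts were 0 to 1 in Cabernet Sauvignon and 2 to 5 in K51-40, the response difference of K51-40 and Cabernet Sauvignon 0 to 1, and the rootstock counts 11 to 17 in control. The lone calls came without Cabernet Sauvignon control replicate 4, Cabernet Sauvignon salt replicate 3 or K51-40 salt replicate 2, and the 2 without K51-40 salt replicate 3. The replicate block over all arrays gave 4 called members for salt in K51-40 and 13 between the rootstocks in control, and the blocks changed no other call count by over 1.5 times. Signal over background was 3.9 to 14.9 for the median spot, which limits dim probes, and ComBat-adjusted values were tested as if measured, which can make p-values too small.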
